A study of Homo sapiens with 14 samples.

Results

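The genes of the aminoacyl-tRNA synthetases were followed here through 2 ways of lowering CALCRL, the calcitonin receptor-like receptor, in endothelial cells. They comprise 20 cytosolic enzymes, 16 mitochondrial enzymes and the 3 scaffold proteins of the multi-tRNA synthetase complex (AIMP1, AIMP2 and EEF1E1). They were picked by gene name from 2 tables of the authors' own comparisons, which together list 12202 genes. Mitochondrial enzymes were those with a name ending in 2, and AIMP2 was kept with the scaffold proteins. All 39 genes stood once in each table and had a p-value in both, among 11261 genes tested in the siRNA comparison and 11830 in the deletion comparison.

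The cells were teloHAEC, aortic endothelial cells of human origin made immortal with telomerase, and the study comprised 14 libraries. For the siRNA comparison, cells were reverse transfected with Silencer Select siRNA, and 4 libraries given the CALCRL siRNA were set against 4 given a scrambled siRNA, all harvested at 24 h. For the deletion comparison, Cas9 protein with guides was electroporated, and 3 libraries with guides on either side of the enhancer called enhancer-8 were set against 3 with a guide against HPRT, all harvested after 2 days. The deletion group is a pool of electroporated cells and not a clone, and the share of edited alleles was not analysed here. Nothing in the labels ties the siRNA replicates to separate cultures, so their p-values may measure technical spread alone. The titles of the deletion libraries likewise give a replicate number only, so the same may hold for the p-values of that comparison.

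Each synthetase joins its own amino acid to the matching tRNAs and so supplies the ribosome with charged tRNA. Cytosolic and mitochondrial translation mostly use separate enzymes, all from nuclear genes, while GARS and KARS each make the enzyme of both compartments. Several cytosolic enzymes are held together with AIMP1, AIMP2 and EEF1E1 in the multi-tRNA synthetase complex, and the rest work outside it. Uncharged tRNA is sensed by the kinase GCN2 (EIF2AK4), which raises translation of the transcription factor ATF4. ATF4 binds a C/EBP-ATF response element (CARE) in the promoters of many genes of amino acid supply, cytosolic synthetases among them.

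The promoters that hold the letters of this element are shown first, since they show which members carry them. The RefSeq promoter table (GRCh38.p14, 250 bases before to 50 after each start) held 45 promoters of 33 of the 39 genes, and the letters TGATGNAA were searched on both strands. The element was found in 7 of the 16 cytosolic genes with a promoter, in 1 of the 14 mitochondrial genes and in 0 of the 3 scaffold genes. By comparison, 4.46% of all 27305 genes with a promoter and 2.75% of the 9165 of them tested in the deletion comparison held it. Counted by single promoter, 3.62% of 35116 held it. The windows read 5′ to 3′ on the strand of the gene, with the 8 bases of the element in capitals.
AARS: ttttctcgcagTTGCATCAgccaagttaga
CARS: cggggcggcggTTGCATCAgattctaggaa
GARS: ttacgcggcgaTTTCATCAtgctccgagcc
IARS: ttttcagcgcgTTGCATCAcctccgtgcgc
MARS: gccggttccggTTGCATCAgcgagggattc
NARS: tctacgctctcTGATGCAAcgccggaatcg
TARS: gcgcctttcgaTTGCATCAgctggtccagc
YARS2: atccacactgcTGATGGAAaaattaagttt

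The windows lie at chr16:70289675-70289704 (AARS, minus strand), chr11:3057407-3057436 (CARS, minus), chr7:30594834-30594863 (GARS, plus) and chr9:92293692-92293721 (IARS, minus). The others lie at chr12:57488053-57488082 (MARS, plus), chr18:57621804-57621833 (NARS, minus), chr5:33440956-33440985 (TARS, plus) and chr12:32756076-32756105 (YARS2, minus). In CARS, IARS, MARS, NARS and TARS the element began within 14 bases of the annotated start, in GARS 33 bases before it, and in AARS and YARS2 187 and 197 bases before it. EPRS, FARSA, FARSB, HARS, KARS, QARS, RARS, SARS and WARS were the 9 cytosolic genes without these letters in the windows searched. AARS2, DARS, LARS, VARS, VARS2 and YARS had no entry in the promoter table.

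Neither table holds a value for a single library. The group means given below were derived from the deposited mean normalised count and fold change, with groups of equal size, and the depth of the libraries is unknown. CALCRL itself was lower in both of the authors' deposited tables, at 34.0% of control with siRNA (log2 fold change -1.56, SE 0.17) and 36.2% after the deletion (-1.47, SE 0.43). Of 12 endothelial markers 11 were listed, and their summed group means were 9929 and 9833 normalised counts in the siRNA comparison and 9249 and 8356 in the deletion comparison, control first. After the deletion the authors' deposited table had CDH5 (VE-cadherin) at -1.44 (SE 0.35) and KDR (VEGF receptor 2) at -1.05 (SE 0.31), both lower at an adjusted p-value under 0.05. The other 9 listed endothelial markers did not pass, 5 of the 11 were above 0 (ENG highest at 0.59, SE 0.35), and the median was -0.01 in the authors' deposited table. Keratin genes KRT8 and KRT18 went from a summed 1992 to 4298 there, while EPCAM, CDH1, PTPRC and all 5 fibroblast markers were not listed. CD68 was at 7.0 and 17.7, and ACTA2 and TAGLN summed to 222 and 204. In such bulk libraries fewer cells of a type and less RNA per cell cannot be told apart. The part of these shifts in the synthetase values was not tested.

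Most cytosolic synthetase transcripts were more abundant after the enhancer deletion. Of the 20 genes 11 rose in the authors' deposited table (DESeq2 Wald test, adjusted p-value under 0.05) and 0 fell, and their median log2 fold change was 0.59, against 0.00 over all tested genes. Over all genes, 15.8% passed the threshold, 7.4% higher and 8.44% lower. All 20 enzymes had a mean of at least 200 normalised counts, and of the 4661 genes above that level 13.4% rose, with a median of 0.08. The Wald statistics of the deletion table had a robust SD of 1.88, where a standard normal has 1. Dividing by it, or taking p-values from Student's t distribution (4 degrees of freedom), left 0 of the 39 members and 0 of all genes past the threshold. At an unadjusted p-value under 0.05 were 4 and 13 members, beside 534 and 1646 of all 11830 genes.

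AARS, which charges alanine, had the lowest adjusted p-value among the members. Its group mean went from 463.6 normalised counts with the control guide to 992.8 after the deletion, 214% of control (95% interval 151% to 303%). The authors' deposited table gave it a log2 fold change of 1.10 (SE 0.26, adjusted p = 0.000944). SARS, the seryl-tRNA synthetase, went from 1014 to 2160 (1.09 in the authors' deposited table, SE 0.33, adjusted p = 0.0141). Both transcripts were at over 2 times the control level, and the standard error of AARS was the smaller.

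The subunits of phenylalanyl-tRNA synthetase rose together. FARSB, the beta subunit, went from 682.2 to 1323 normalised counts, and the authors' deposited table gave 0.96 (SE 0.22, adjusted p = 0.000973). FARSA, the alpha subunit, went from 427.8 to 805.8, at 0.91 in the authors' deposited table (SE 0.31, adjusted p = 0.0304). The products of these genes form a single heterotetrameric enzyme, and their deposited fold changes differed by less than either standard error. With the trend on GC content removed, FARSB still passed, at 0.96, and FARSA did not, at 0.38.

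NARS (asparagine), TARS (threonine), GARS (glycine), VARS (valine) and WARS (tryptophan) completed the enzymes outside the complex that rose. NARS, at 1376 and 2194 normalised counts, had the smallest standard error of these (0.67 in the authors' deposited table, SE 0.17, adjusted p = 0.00296). TARS, at 1708 and 2799, had the highest counts of the members (0.71 in the authors' deposited table, SE 0.26, adjusted p = 0.0445). GARS, at 1224 and 1931, was at 0.66 (SE 0.21, adjusted p = 0.0216) in the authors' deposited table. These 3 genes hold the response element shown above. VARS went from 313.3 to 566.0 (0.85, SE 0.31, adjusted p = 0.0388 in the authors' deposited table). WARS went from 688.8 to 1221 (0.83, SE 0.29, adjusted p = 0.0364 in the authors' deposited table). For VARS and WARS, as for TARS, the adjusted p-value lay close to the threshold.

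CARS (cysteine), YARS (tyrosine) and HARS (histidine) did not pass it. Their log2 fold changes were 0.48 (SE 0.24), 0.44 (SE 0.26) and 0.06 (SE 0.36) in the authors' deposited table. HARS, at 370.0 and 386.4 normalised counts, was the member outside the complex nearest to no change, with a 95% interval of 64.2% to 170% of control.

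**Figure D1:**
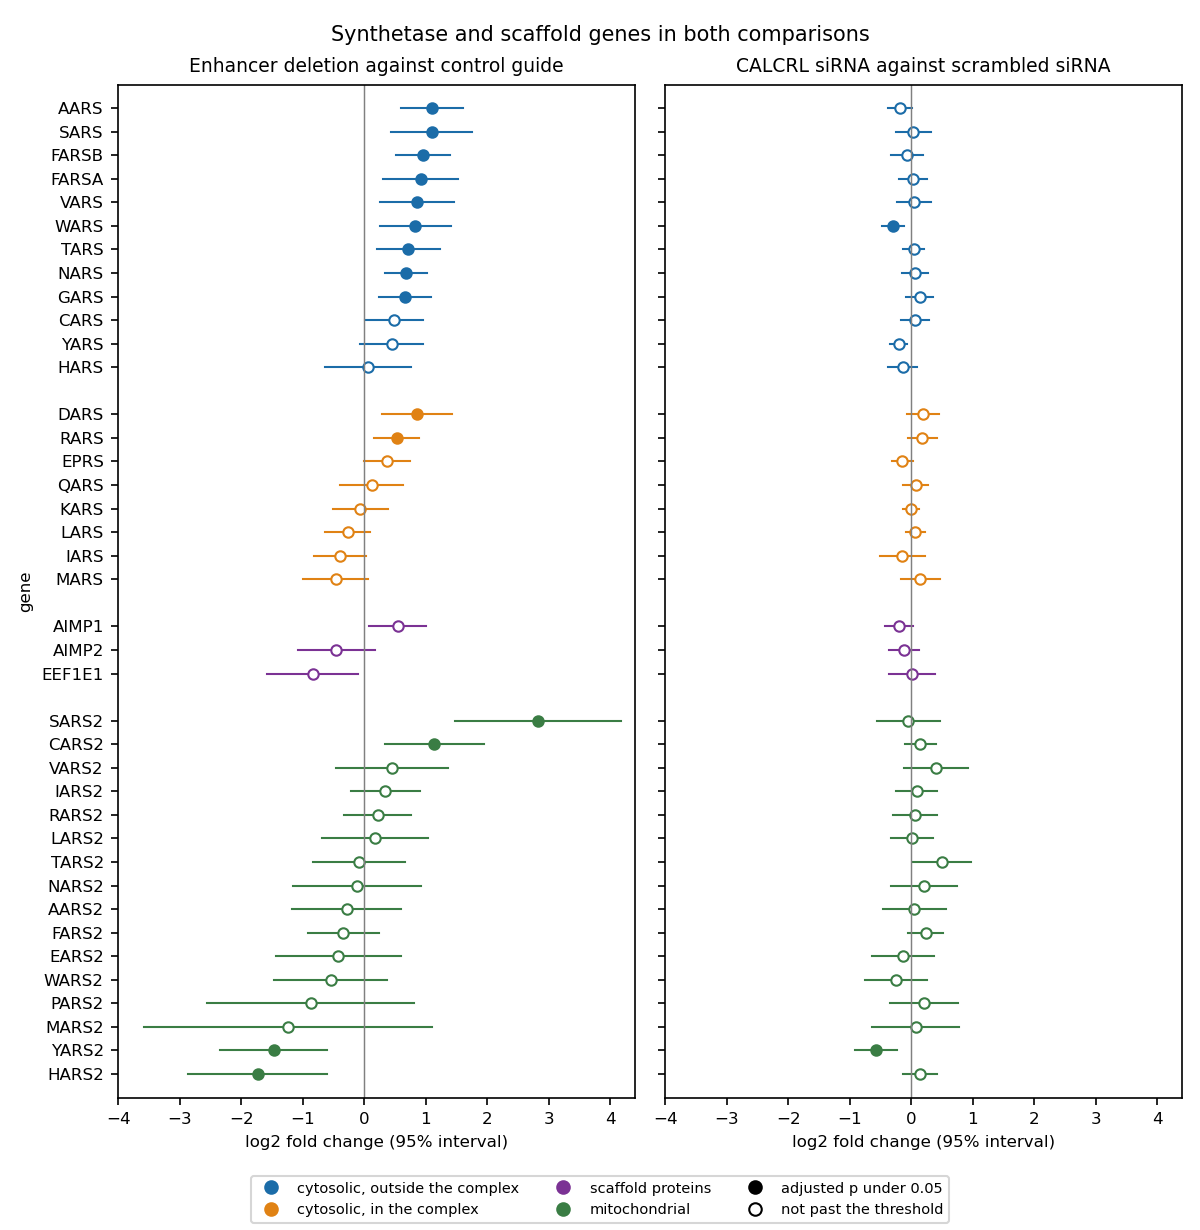
Log2 fold change of each of the 39 genes, with its 95% interval, for the deletion (left) and the siRNA (right), from the authors' deposited tables. Filled points passed an adjusted p-value of 0.05. All 12 cytosolic enzymes outside the complex lie above 0 on the left, and the mitochondrial enzymes lie between -1.74 and 2.82.

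Enzymes of the multi-tRNA synthetase complex moved less uniformly. Of the 8 complex enzymes 2 rose and 0 fell, with 4 above and 4 below 0 and a median of 0.03, which was -0.02 and -0.13 under another centring and with the trend on GC content removed. Of the 12 enzymes outside the complex 9 rose and 0 fell, all 12 were above 0, and the median was 0.77. That median was 0.72 under the other centring and 0.60 with the trend on GC content removed, where HARS was at -0.10. With the trend on GC content removed 5 of the 12 rose. Over all genes 7.4% rose as reported, and 13.4% of those with a mean of at least 200. With that trend removed, 1440 of 11625 genes passed in either direction, against 1874 of 11830 as reported. The difference between the subsets was not tested, since members are not replicates.

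DARS, the aspartyl-tRNA synthetase, went from 864.4 to 1563 normalised counts (0.85 in the authors' deposited table, SE 0.29, adjusted p = 0.029). RARS, for arginine, went from 1398 to 2014 (0.53, SE 0.19, adjusted p = 0.0379 in the authors' deposited table). These are the complex enzymes that rose. EPRS, the fused enzyme for glutamate and proline, was at 0.37 (SE 0.19), QARS (glutamine) at 0.12 (SE 0.26) and KARS (lysine) at -0.06 (SE 0.22) in the authors' deposited table. The lowest were LARS (leucine) at -0.27 (SE 0.19), IARS (isoleucine) at -0.39 (SE 0.22) and MARS (methionine) at -0.47 (SE 0.27) in the authors' deposited table. None of these 6 passed the threshold, so a fall of the last 3 was not shown. IARS and MARS hold the response element, and the 3′ end of MARS overlaps an exon of DDIT3 on the opposite strand.

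The scaffold proteins, which hold the complex together, gave no call. AIMP1 was at 0.54 (SE 0.24, adjusted p = 0.0979), AIMP2 at -0.46 (SE 0.32) and EEF1E1 at -0.84 (SE 0.38, adjusted p = 0.110) in the authors' deposited table. EEF1E1 went from 345.3 to 192.5 normalised counts, 55.7% of control. AIMP1 passed with the trend on GC content removed (0.75, adjusted p = 0.0201).

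By catalytic class, the 10 class II enzymes, whose active site is built on an antiparallel beta sheet, had 8 that rose and a median of 0.78. The 10 class I enzymes, with a Rossmann fold, among which EPRS was counted although its prolyl part is class II, had 3 that rose and a median of 0.40. Of the class I enzymes 6 belong to the complex, and of the class II enzymes 2. Over all genes 7.4% rose, and 13.4% of those with a mean of at least 200. With centring on the median of genes at a mean of at least 100 (0.05), 7 of all 20 cytosolic enzymes passed, and likewise 7 with the GC trend removed. Over all genes, 1789 of 11830 passed in either direction with centring and 1440 of 11625 with the GC trend removed, against 1874 of 11830 as reported. RARS, TARS, VARS and WARS no longer passed under centring, at adjusted p-values of 0.0621, 0.0637, 0.0538 and 0.0512.

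**Figure D2:**
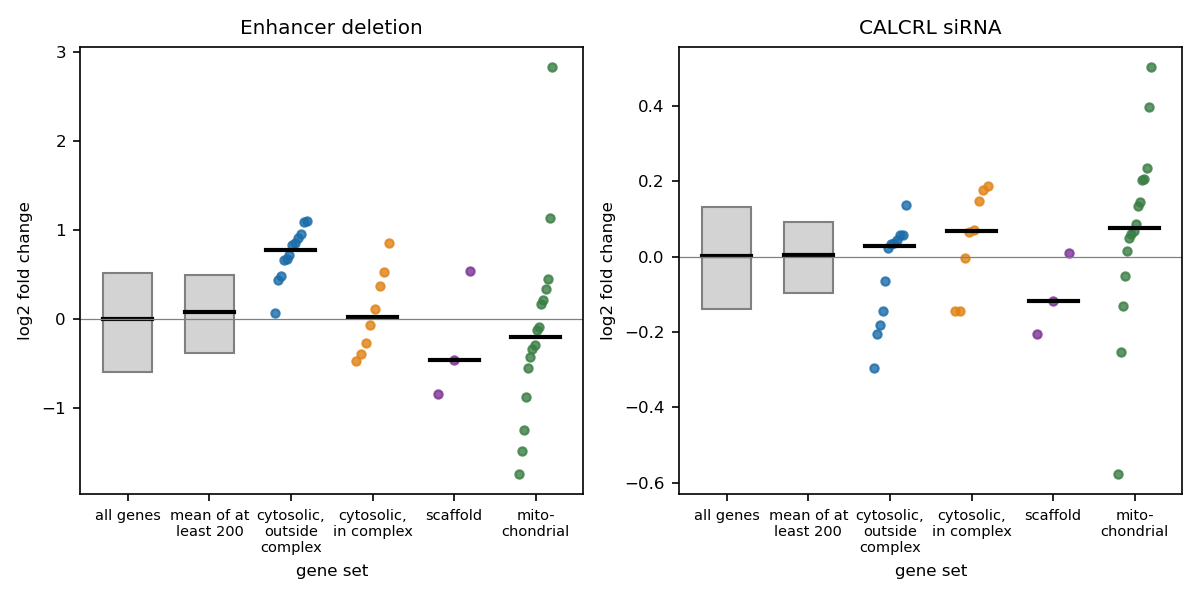
Log2 fold changes of the members by subset after the deletion (left) and with siRNA (right), from the authors' deposited tables, with different vertical scales. Points are genes, black lines medians, and grey boxes the interquartile range of all tested genes and of those with a mean of at least 200. After the deletion the median was 0.77 for cytosolic enzymes outside the complex, 0.03 for those in it and -0.21 for mitochondrial enzymes.

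Mitochondrial enzymes moved in both directions after the deletion, and had lower counts, which in a 3′ assay do not grow with transcript length. Of 16 genes 2 rose and 2 fell, beside 7.4% higher and 8.44% lower over all genes. An excess over these shares was not tested. Of the 16 mitochondrial enzymes 6 were above and 10 below 0, and the median was -0.21. Their median normalised count was 77.2 against 970.5 for the cytosolic enzymes, and the median standard error was 0.46 against 0.26.

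SARS2, the mitochondrial seryl-tRNA synthetase, went from 15.7 to 111.1 normalised counts, the largest fold change of any member. The authors' deposited table gave 2.82 (SE 0.69, adjusted p = 0.0016), and the 95% interval ran from 278% to 1799% of control. Its last exon overlaps another gene, AC011455.2, on the same strand in GENCODE 29, so reads of the shared stretch cannot be told apart from those of that gene. CARS2, for cysteine, went from 141.8 to 311.4 (1.13, SE 0.41, adjusted p = 0.0409 in the authors' deposited table). Each serine and cysteine enzyme thus had a value above 0 in both compartments.

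YARS2 and HARS2 were the mitochondrial enzymes that fell. YARS2, the tyrosyl enzyme, went from 135.1 to 48.5 normalised counts, 35.9% of control (95% interval 19.6% to 65.8%), at -1.48 in the authors' deposited table (SE 0.45, adjusted p = 0.0128). HARS2, the histidyl enzyme, went from 131.4 to 39.4, 30.0% of control (13.7% to 65.5%), at -1.74 (SE 0.58, adjusted p = 0.0242) in the authors' deposited table. The 3′ end of HARS2 overlaps an exon of ZMAT2 on the same strand, and ZMAT2 was at 0.46 (SE 0.28, adjusted p = 0.272) in the authors' deposited table. Its divergent neighbour HARS, whose own 3′ end overlaps WDR55 on the opposite strand, was at 0.06 as given above.

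The other 12 mitochondrial enzymes did not pass the threshold. Their log2 fold changes in the authors' deposited table ran from 0.45 (VARS2, SE 0.46) to -1.25 (MARS2, SE 1.19). Partners of cytosolic enzymes that rose were VARS2 at 0.45 (SE 0.46), AARS2 at -0.29 (SE 0.45), FARS2 at -0.34 (SE 0.29), NARS2 at -0.13 (SE 0.53), TARS2 at -0.09 (SE 0.38), WARS2 at -0.55 (SE 0.47) and RARS2 at 0.21 (SE 0.28) in the authors' deposited table. These 7 had a lower value than their cytosolic partner, whereas SARS2, the partner of SARS, had a higher one. DARS and GARS have no partner among the members. The authors' deposited table had IARS2 at 0.34 (SE 0.29), LARS2 at 0.17 (SE 0.44), EARS2 at -0.42 (SE 0.52) and PARS2, for proline, at -0.87 (SE 0.86). MARS2 and PARS2 had means of 17.6 and 20.2 normalised counts, and a change of either was not detectable at such standard errors. Leaving out the genes whose 3′ end overlaps another gene's exon (HARS, HARS2, MARS, SARS2 and WARS), 1 mitochondrial enzyme rose and 1 fell.

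**Figure D3:**
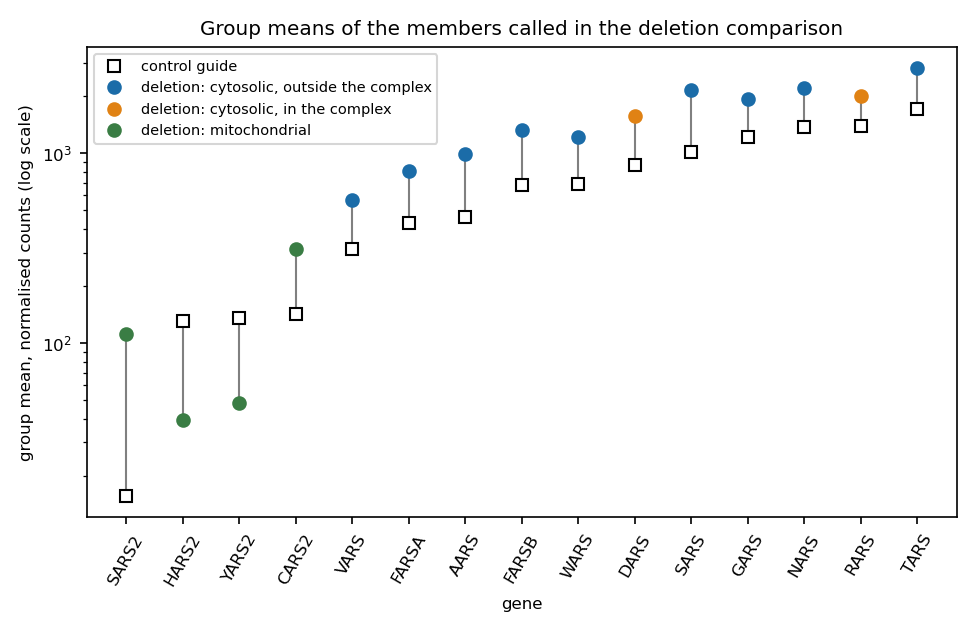
Group means of the 15 members called in the deletion comparison, in normalised counts on a log scale, derived from the authors' deposited table. Open squares are the control guide and filled circles the deletion. The 11 cytosolic enzymes lie above their controls, and HARS2 and YARS2 lie below theirs.

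Set side by side by amino acid, cytosolic enzymes had the higher log2 fold change in 13 of 17 pairs after the deletion (EPRS and FARS2 each enter 2 pairs). The median difference, cytosolic minus mitochondrial, was 0.80 on the log2 scale. It was largest for tyrosine (YARS 0.44 and YARS2 -1.48 in the authors' deposited table) and histidine (0.06 and -1.74). Serine went the other way, with SARS at 1.09 and SARS2 at 2.82, and so did cysteine, isoleucine and leucine. In the siRNA comparison 5 pairs had the higher cytosolic value and 12 the higher mitochondrial one, with a median difference of -0.15. No test was made over pairs.

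**Figure D4:**
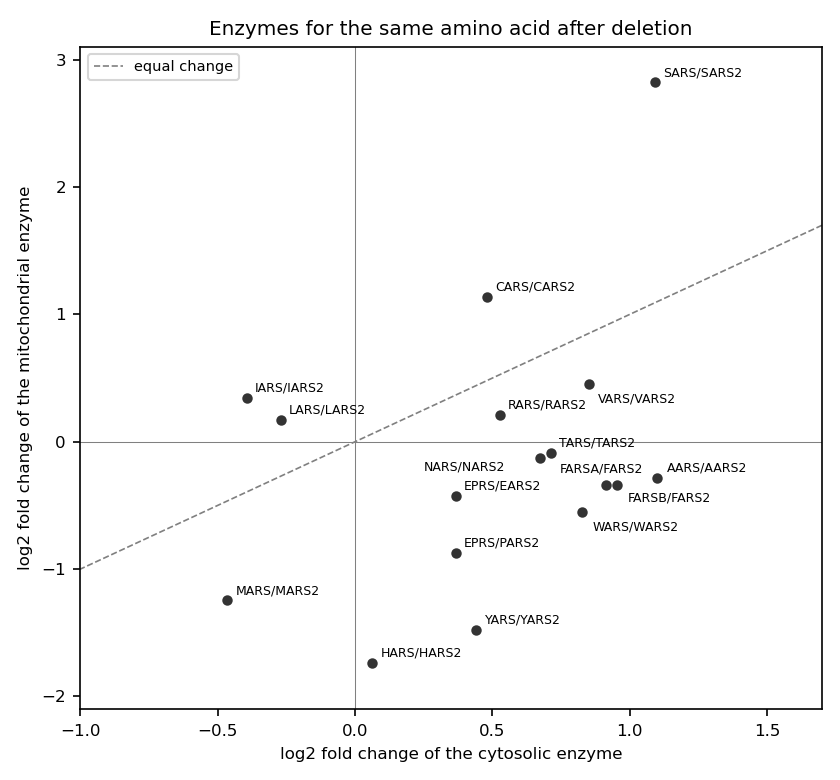
Log2 fold change after the deletion of each cytosolic enzyme (horizontal) and its mitochondrial partner (vertical), from the authors' deposited table. The dashed line marks equal change, and 13 of 17 pairs lie below it.

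With siRNA against CALCRL few synthetase transcripts changed. Of the 39 genes 2 passed the threshold in the authors' deposited table, both lower, where 3.46% of all genes passed and 2.42% were lower. The medians were 0.04 for the cytosolic, 0.08 for the mitochondrial and -0.12 for the scaffold genes, and 0.00 over all genes. Standard errors were small here, with a median of 0.11 for cytosolic enzymes, and their log2 fold changes spanned -0.29 to 0.19. Both calls were lost with Student's t distribution (6 degrees of freedom), which left 5 of all genes, and with the statistics divided by their robust SD of 1.11, which left 262. Each left 3 members at an unadjusted p-value under 0.05, beside 774 and 1076 of all 11261 genes.

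WARS went from 1106 to 901.2 normalised counts, 81.5% of control (95% interval 72.0% to 92.2%), at -0.29 in the authors' deposited table (SE 0.09, adjusted p = 0.0377). YARS2 went from 104.2 to 69.8, 67.1% of control (53.0% to 84.9%), at -0.58 (SE 0.17, adjusted p = 0.0309) in the authors' deposited table. WARS is the cytosolic and YARS2 a mitochondrial enzyme, and both charge aromatic amino acids. Their partners did not pass: YARS was at -0.20 (SE 0.07, adjusted p = 0.0988) and WARS2 at -0.25 (SE 0.25) in the authors' deposited table. The 3′ end of WARS overlaps the antisense gene AL157871.4, and whether counting used the strand is not given in the sources used here.

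Other cytosolic enzymes lay between -0.20 and 0.19. DARS and RARS were the highest at 0.19 (SE 0.13) and 0.18 (SE 0.12), and GARS and KARS, which serve both compartments, were at 0.14 (SE 0.11) and -0.00 (SE 0.07) in the authors' deposited table. KARS had a 95% interval of 91.3% to 109% of control. Of the enzymes with the largest changes after the deletion, YARS2 was lower here too, as given above. The others did not pass, with AARS at -0.18 (SE 0.10), SARS at 0.03 (SE 0.14), FARSB at -0.06 (SE 0.13), SARS2 at -0.05 (SE 0.26) and HARS2 at 0.14 (SE 0.14) in the authors' deposited table. Among mitochondrial enzymes TARS2 was highest at 0.50 (SE 0.24, adjusted p = 0.351) and VARS2 next at 0.40 (SE 0.26) in the authors' deposited table. AIMP1, AIMP2 and EEF1E1 were at -0.21 (SE 0.12), -0.12 (SE 0.12) and 0.01 (SE 0.19) in the authors' deposited table.

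Both WARS and YARS2 also passed after the deletion, so 100% of the 2 siRNA calls and 13.3% of the 15 deletion calls were shared, and 24 members passed in neither. Over the 10891 genes tested in both, 12.4% of 380 siRNA calls and 2.59% of 1814 deletion calls were shared. Of these 10891 genes 80.3% passed in neither. With 2 siRNA calls among the members, nothing is read from their overlap. YARS2 was lower in both comparisons, and WARS was lower with siRNA and higher after the deletion. For YARS2 the log2 fold changes differed by 0.90 between the comparisons (SE 0.48, adjusted p = 0.196), so a difference in its fall was not shown.

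Whether a gene's change differed between the comparisons was tested from the fold changes and standard errors of the authors' deposited tables, which share no libraries. It passed for 8 of the 39 members (Wald test, normal reference, Benjamini-Hochberg over 10891 genes), against 13.7% of all genes. Relative to siRNA, the deletion value was higher by 1.28 for AARS (SE 0.27, adjusted p = 0.000377), 1.02 for FARSB (SE 0.26, adjusted p = 0.00334) and 1.12 for WARS (SE 0.31, adjusted p = 0.00668). It was also higher for SARS, NARS, SARS2 and the scaffold gene AIMP1, and lower for HARS2 by 1.87 (SE 0.59, adjusted p = 0.0201). AIMP1 passed here although neither comparison alone called it, and no longer passed under centring (adjusted p = 0.0545). With the trend on GC content removed SARS and WARS no longer passed (adjusted p = 0.130 and 0.0507), while DARS and TARS did (0.0246 and 0.0217). With Student's t distribution (10 degrees of freedom) or statistics divided by their robust SD, 0 members and 0 of the 10891 genes passed. At an unadjusted p-value under 0.05 were 14 and 4 members, beside 2461 and 447 of the 10891 genes. Time after treatment, delivery, library number and the control differ between the comparisons too and cannot be told apart from the target. The control was a scrambled siRNA in the siRNA comparison and a guide against HPRT in the deletion comparison. Within the deletion comparison, effects of the HPRT guide cannot be told apart from those of the enhancer guides.

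Cytosolic enzymes rose with and without the response element in their promoter. After the deletion 4 of the 7 with the element rose (AARS, GARS, NARS and TARS), with a median of 0.66 and a range of -0.47 to 1.10. Of the 9 with a promoter and without the element 5 rose, with a median of 0.53. Among the other genes tested after the deletion, 4.1% of 244 with the element and 7.72% of 8888 without it were higher. The motif of NRF1, a regulator of nuclear genes for mitochondria, was found on either strand in 3 of 16 cytosolic (FARSB, SARS and TARS), 3 of 14 mitochondrial (IARS2, MARS2 and PARS2) and 1 of 3 scaffold genes (AIMP2). It was in 14.3% of the deletion table's genes with a promoter. A match is a description of the letters and not of binding.

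ATF4 itself rose after the deletion, and calls among genes of its response were near the share of all genes. The authors' deposited table gave ATF4 a log2 fold change of 0.92 (SE 0.24, adjusted p = 0.00394), from 1072 to 2034 normalised counts. Of 26 listed genes of the amino acid response 3 rose (ATF4, and PHGDH and SHMT2 of serine and glycine synthesis, at 1.16 and 1.01) and 1 fell (CEBPB at -2.19), with a median of -0.13 in the authors' deposited table. These 4 calls are 15.4% of the list, beside 15.8% of all genes. ASNS, CHAC1, DDIT3 and TRIB3, common readouts of that response, were at -0.07, 0.26, -0.50 and -0.40 in the authors' deposited table and did not pass. Standard errors of the 26 genes had a median of 0.39 and reached 1.65, so absence of a change was not shown. None of the 7 listed genes of eIF2 kinases and their partners passed, with 1 at an unadjusted p-value under 0.05 (DESeq2), and the authors' deposited table had EIF2AK4 at 0.16 (SE 0.20). With siRNA, 2 of the 26 fell in the authors' deposited table, SHMT2 at -0.48 and SLC7A11, the cystine transporter, at -0.45, and ATF4 was at -0.10.

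Among genes on either side of tRNA charging, the share of calls after the deletion was near that of all genes (15.8%) in the larger lists. Of 41 genes of tRNA processing and modification 6 rose and 2 fell in the authors' deposited table, 19.5% in all, with a median of -0.11. MTO1 (1.76), which modifies mitochondrial tRNA, TRMT1 (1.49), POP5 (1.39), ADAT1 (1.36), ELAC2 (1.06) and HSD17B10 (1.01) rose, and the methyltransferase NSUN2 (-1.58) and the splicing endonuclease subunit TSEN34 (-1.29) fell in the authors' deposited table. Of 4 cytosolic elongation factor genes EEF1D rose, at 1.65 (SE 0.39 in the authors' deposited table). Of 13 mitochondrial translation genes 2 fell (15.4%) and 0 rose in the authors' deposited table, namely TSFM, an elongation factor, at -2.58 and GFM2, a ribosome recycling factor, at -2.39. The deacylase DTD1, which removes mischarged D-amino acids from tRNA, fell as the only call among 4 editing genes, at -1.70 in the authors' deposited table. In the siRNA comparison TRMT112 was the only call among these lists, at 0.37 in the authors' deposited table.

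GC content near the 3′ end moved with the deletion values. Over all genes the log2 fold change and the GC content of the last 500 transcript bases had a Spearman correlation of 0.302, across genes of the same libraries, and of 0.0741 with siRNA. Genes of the lowest 10% of GC content had a median of -0.27 in the deletion comparison, and those of the highest 10% had 0.60. Cytosolic enzymes had a median GC content of 46.2%, mitochondrial ones 44.6% and all genes 42.0%. With the trend removed SARS (0.82), FARSA (0.38), VARS (0.23), WARS (0.53) and CARS2 (0.90) no longer passed, at adjusted p-values of 0.0813, 0.458, 0.671, 0.225 and 0.132. AARS (0.81), FARSB (0.96), NARS (0.84), SARS2 (2.32), HARS2 (-1.70) and YARS2 (-1.48) still passed, at adjusted p-values of 0.0213, 0.000922, 0.000123, 0.0125, 0.0321 and 0.0147. DARS, GARS, RARS and TARS also passed, at 1.20, 0.66, 0.64 and 0.93.

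**Figure D5:**
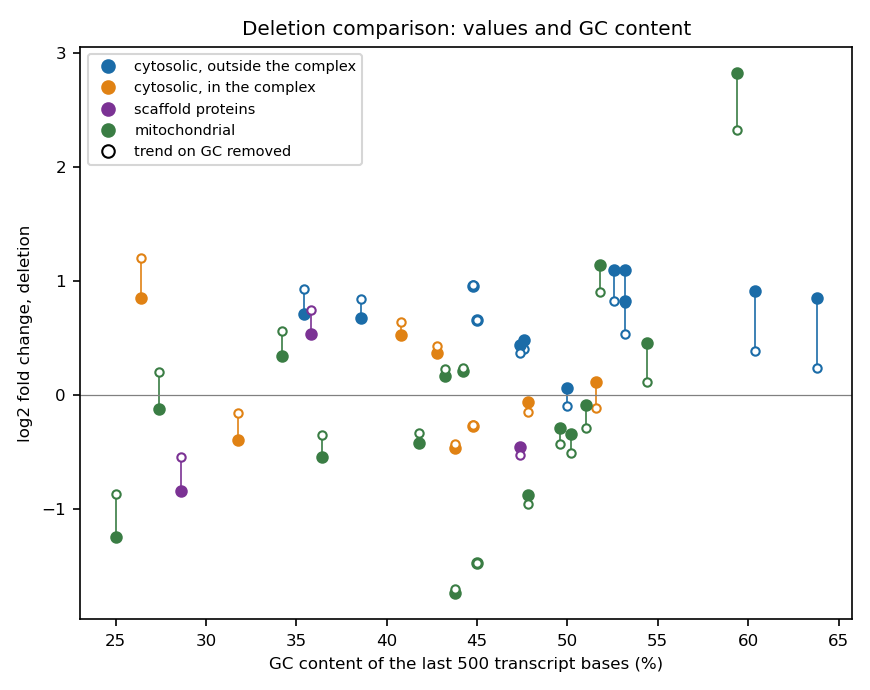
Log2 fold change after the deletion against GC content of the last 500 transcript bases, in percent, for each member. Filled points are values of the authors' deposited table and open points the same genes with the trend on GC content removed. FARSA and VARS, the cytosolic genes of highest GC content, moved most, from 0.91 to 0.38 and from 0.85 to 0.23.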

How the data were processed

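RNA was profiled in 14 teloHAEC libraries in 4 groups with QuantSeq 3′ FWD, which reads near the polyadenylated end, as 86 single-end cycles per the labels' protocols. Per the file headers, the authors deposited 1 DESeq2 table for each comparison, listing for each gene the mean normalised count, log2 fold change, standard error, Wald statistic (a score), p-value and adjusted p-value. The submitters' processing notes name edgeR 3.24.3 and hg19; aligner and filters are not given in the sources used here. In both tables the Wald statistic equalled fold change over standard error and the adjusted p-value a Benjamini-Hochberg adjustment over the rows.

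The tables give no value for a single library, so tests of single genes are the authors', depth is unknown, and replicates could not be left out or compared. Intervals (95%), group means and the difference between comparisons were computed from the deposited values (Python 3.11.15, pandas 2.3.3, SciPy 1.17.1) and tested on simulated data. The threshold was an adjusted p-value of 0.05. Alternatives were a Student t reference, statistics divided by their robust SD, filters at mean counts of 10 and 50, another centring, a lowess trend on GC content (span 0.3, statsmodels 0.14.6) and a threshold of 0.1. GENCODE 29 on GRCh38 matched 11099 and 11630 genes, promoters came from RefSeq (GRCh38.p14), and neither build is the authors'. Members and lists were chosen with earlier results of these data known. Named with values were all called members, the 2 highest and lowest of each class, GARS, KARS, HARS with HARS2, partners of called enzymes, and called genes of the other lists.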

Additional observations from a re-analysis of the deposited data

Results flagged for a closer look

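For 8 members the log2 fold changes of the siRNA and deletion comparisons differed by a test of the difference itself (Wald test, adjusted p-value under 0.05 over all genes tested in both). Values here are siRNA minus deletion. The cytosolic enzymes were AARS at -1.28, WARS at -1.12, SARS at -1.06 (SE 0.36, adjusted p = 0.0329), FARSB at -1.02 and NARS at -0.62 (SE 0.20, adjusted p = 0.0261). The mitochondrial enzymes SARS2 (-2.87, SE 0.74, adjusted p = 0.00354) and HARS2 (1.87) pointed in opposite directions. The scaffold gene AIMP1 was at -0.74 (SE 0.26, adjusted p = 0.0387), where the authors' deposited tables had -0.21 with siRNA and 0.54 with the deletion. Among these genes WARS alone was called in both comparisons, with opposite signs, and AIMP1 in neither.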

How the results depend on the processing

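Depth could not be read from the tables, so precision rests on the deposited standard errors. With a Student t reference, or with the statistics divided by their robust SD, 0 remained of each of these counts: 2 siRNA members, 15 deletion members, 11 cytosolic enzymes higher, 9 outside the complex, 2 in it, 2 mitochondrial enzymes higher, 2 lower, and 8 members differing between the comparisons. For the deletion and for the difference, 0 of all genes passed under either setting, so no member could. With siRNA 5 and 262 of 11261 genes passed. With centring, 7 cytosolic, 1 complex and 1 mitochondrial enzyme were higher, and with the GC trend removed 7 cytosolic enzymes, 5 outside the complex and 1 mitochondrial. Over all genes, 1789 of 11830 passed in either direction with centring and 1440 of 11625 with the GC trend removed, against 1874 of 11830 as reported. The cause of the losses under centring and GC removal was not tested. Leaving out members that overlap another gene, an alternative chosen after seeing the data, left 1 mitochondrial enzyme higher and 1 lower. At an adjusted p-value under 0.1, 13 members differed between the comparisons. The share of all genes at that threshold was not computed, so nothing is read from this count. Filters at mean counts of 10 and 50 kept the same 2 siRNA and 15 deletion members. For the 17 calls of single members, 58 of 102 values under the alternatives kept the call and 44 lost it, with 0 reversed. For AARS after the deletion the adjusted p-value ran from 0.000707 to 0.976 over the alternatives, for YARS2 with siRNA from 0.0240 to 0.557. The value of 0.976 was the same for each of the 15 deletion members. It comes from a setting in which 0 of 11830 genes passed, so it does not describe AARS in particular. No paired analysis was possible because the values are summaries over libraries, and no replicate could be left out.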

Other observations

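The word GTAACAA stood out in earlier work on the same siRNA table, where it was picked with the values in view. Among 10639 genes with a 3′ UTR in GENCODE 29, 10.7% hold it, and their median log2 fold change with siRNA was -0.12, against 0.01 for genes without it. Of the 39 members only EPRS holds it, at base 357 of 799, in the stretch tgacatgagtaGTAACAAtggatgcatga with the word in capitals. EPRS was at -0.14 (SE 0.09, adjusted p = 0.564) with siRNA in the authors' deposited table. WARS and YARS2, the members that fell, do not hold it.

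DARS, FARSB and MARS2 lie on chromosome 2, as CALCRL does. After the deletion they were at 0.85, 0.96 and -1.25 (SE 1.19) in the authors' deposited table.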
